A study of Rattus norvegicus with 484 samples.

Results

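Pck1, G6pc1 and Tat are 3 hepatic genes of the fasting response, taken here by gene symbol from a rat microarray series on agonists of the peroxisome proliferator-activated receptors (PPARs). They were 3 of the 10210 genes that the array's annotation named. Pck1 was covered by 4 probes, G6pc1 (called G6pc in older annotation) by 3 and Tat by 1. Livers of single rats were labelled with Cy5 and hybridised against a Cy3 pool of vehicle livers of the same day, made from 14 to 16 rats. The compounds were fenofibrate at 400 mkd (14 rats), bezafibrate at 250 mkd (15 rats), Wy-14643 at 100 mkd (15 rats), rosiglitazone at 100 mkd (15 rats) and retinoic acid at 25 mkd (15 rats), with dose units as the labels give them. Each compound had 3 rats on each of days 2 to 6, except fenofibrate with 2 rats on day 3. Single vehicle rats numbered 73, with 14, 14, 15, 14 and 16 rats on the 5 days. Soleus, quad and EDL muscle made up the other 132, 151 and 54 of the 484 arrays. The labels used here gave neither strain, sex, age, route nor the nature of the vehicle. They gave no genotype other than the species, and the pool on each array held only vehicle RNA.

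Gluconeogenesis is the pathway by which the liver makes glucose from lactate, glycerol and amino acids during fasting. Pck1 encodes the cytosolic phosphoenolpyruvate carboxykinase, which turns oxaloacetate into phosphoenolpyruvate, and G6pc1 encodes the catalytic subunit of glucose-6-phosphatase, which releases free glucose. Tat encodes tyrosine aminotransferase, which starts tyrosine breakdown and is a textbook target of glucocorticoids in liver. Glucagon through cAMP and glucocorticoids are known to raise transcription of these genes, and insulin is known to lower Pck1 and G6pc1. Fenofibrate, bezafibrate and Wy-14643 are known as PPARA agonists, rosiglitazone as a PPARG agonist, and retinoic acid acts through retinoic acid receptors.

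The 250 bases upstream of Pck1 and G6pc1 are shown because part of the known hormonal control of both genes is placed there. Sites farther from the start, of these genes or of Tat, were not searched. The arrays showed Pck1 and G6pc1 moving together among untreated rats, and a link of this to the sequences was not tested. The sequences come from RefSeq on the rat build GRCr8, and all 3 genes were matched. Pck1 lies on chromosome 3 from 182348572 to 182354521, G6pc1 on chromosome 10 from 86807659 to 86819023 and Tat on chromosome 19 from 54856604 to 54867168, each on the plus strand. The windows below are chr3:182348322-182348571 and chr10:86807409-86807658, plus strand, written 5′ to 3′, and each ends at the base before the annotated start. Capitals mark matches to TNACGTNA, a pattern like the cAMP response element, and to TGTTTNC, a pattern like the FOXO site.
Pck1: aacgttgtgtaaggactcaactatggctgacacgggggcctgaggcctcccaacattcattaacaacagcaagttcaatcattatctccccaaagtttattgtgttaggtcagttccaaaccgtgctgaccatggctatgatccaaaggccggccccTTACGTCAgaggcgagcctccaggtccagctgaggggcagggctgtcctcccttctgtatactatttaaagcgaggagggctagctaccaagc
G6pc1: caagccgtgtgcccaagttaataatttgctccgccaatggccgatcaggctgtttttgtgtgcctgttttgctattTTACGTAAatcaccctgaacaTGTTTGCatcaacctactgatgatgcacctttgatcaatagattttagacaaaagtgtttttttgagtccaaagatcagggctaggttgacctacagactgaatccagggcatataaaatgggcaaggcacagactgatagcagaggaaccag
The Pck1 match, TTACGTCA, spans bases 93 to 86 before the start. The G6pc1 match, TTACGTAA, spans bases 174 to 167, and its TGTTTGC follows at 153 to 147. On both strands, TNACGTNA was found in 4.14% and TGTTTNC in 18.3% of 33469 rat promoters of this length. Of 4 further patterns, Pck1 held CAAAGT (12.9% of promoters), and G6pc1 held TATAAA (12.9%) and CCAAT (34.0%). The Tat window, chr19:54856354-54856603, held CCAAT at 3 places and no match to the other 5 patterns, among them AGAACA, a glucocorticoid response half-site pattern (17.5% of promoters). These matches describe letters within the window and were not tested for function.

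All values below are log2 ratios of a rat to its pool unless a sentence calls them differences from vehicle. The direction, rat over pool, was not stated and was inferred: read this way, Acot1, an acyl-CoA thioesterase and known PPARA target, was 3.20 higher with Wy-14643 and Cyp26a1, the retinoic acid hydroxylase, 3.49 higher with retinoic acid. The arrays had medians from -0.02 to 0.08 across the 147 livers. Ratios to a pool of the same tissue do not show the level of any gene, so tissue markers could be checked only relative to that pool. A group mean here compares bulk tissue, in which fewer hepatocytes and less RNA per hepatocyte cannot be told apart. The labels do not say that rats were housed or handled separately, so p-values measure the spread between these rats.

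A few livers stood apart in ways that touch the results. In rosiglitazone rat 1376 on day 4 the spread of the log2 ratios over all genes was 4.56 times the liver median, against 0.63 to 2.83 times in the other 146 livers. The median of its hepatocyte markers differed from the other rats of the day by -3.53, that of its adipocyte markers by 1.68 and that of its skeletal muscle markers by 1.07. Pck1 read -3.91, G6pc1 -4.16 and Tat -5.03 in that rat, the lowest liver values of Pck1 and Tat in the series. Rosiglitazone rat 1380 on day 5 followed with a spread of 2.83 times the median, Pck1 at -1.67 and G6pc1 at -1.61. Retinoic acid rat 1314 on day 3 had a spread of 2.36 times the median, Pck1 at -2.55 and the lowest G6pc1 of all livers, -4.48, with hepatocyte markers at -0.12 against the other rats of its day. Vehicle rat 1054 on day 5 read -2.23 for Pck1 and -1.66 for G6pc1, while its spread was 1.03 times the median. Member results that changed their call without one of these rats are given with and without it.

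**Figure D1:**
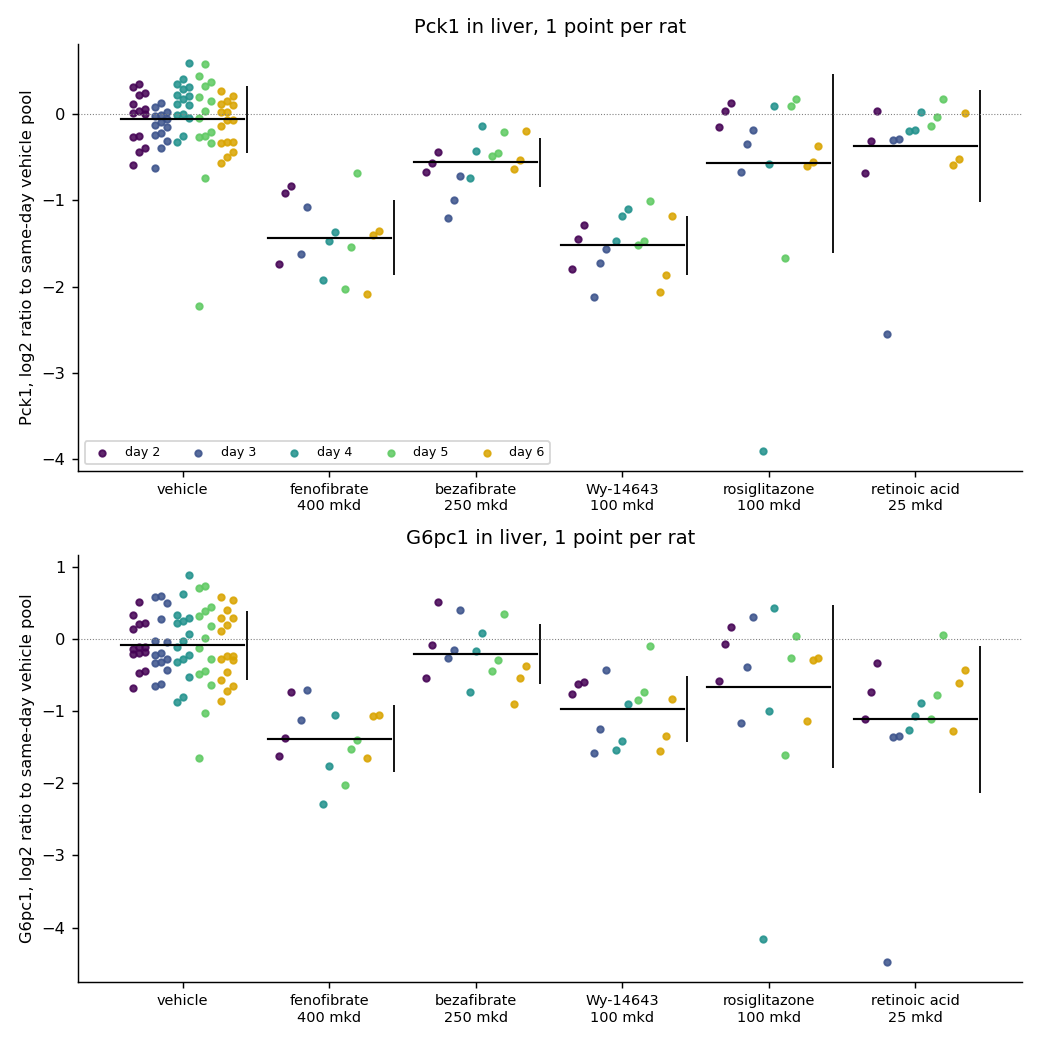
Log2 ratio to the same-day vehicle pool of Pck1 (top) and G6pc1 (bottom) in liver, 1 point per rat, coloured by day. Horizontal lines are group means over all days and vertical bars their SD. Fenofibrate and Wy-14643 rats sit between -0.69 and -2.12 for Pck1, with single low rats in the vehicle, rosiglitazone and retinoic acid groups.

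Pck1 was lower in liver with all 3 PPARA agonists. It was 2.76-fold lower with Wy-14643 (95% interval 2.28 to 3.34), 2.58-fold lower with fenofibrate (2.11 to 3.15) and 1.41-fold lower with bezafibrate (1.17 to 1.71), averaged over the 5 days. Vehicle livers ran from -2.23 through a median of 0.01 to 0.59 (n = 73). Wy-14643 livers ran from -2.12 through -1.47 to -1.01 (n = 15). Fenofibrate livers ran from -2.09 through -1.44 to -0.69 (n = 14), and bezafibrate livers from -1.20 through -0.53 to -0.14 (n = 15). Every rat of the 3 groups lay below the mean of its day's vehicle rats, and 12 of 15, 11 of 14 and 7 of 15 lay below the lowest vehicle rat of their day. All Wy-14643 rats, and all fenofibrate rats, lay below every vehicle rat on days 2, 3, 4 and 6. The share of all features that separate in this way was not counted. On day 5 vehicle rat 1054 lay below all rats of both groups.

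The differences from vehicle were tested with limma, with Benjamini-Hochberg adjustment over all features. The difference in Pck1 was -1.46 ± 0.14 (SE) with Wy-14643 (adjusted p = 8.3e-17), in a comparison that called 40.2% of all features. With fenofibrate it was -1.37 ± 0.15 (adjusted p = 3.4e-14), where 37% of features were called. With bezafibrate it was -0.50 ± 0.14 (adjusted p = 0.0045), where 21.3% were called. Without day 3 the bezafibrate difference was -0.42 and no longer passed (adjusted p = 0.056). The doses of the 3 compounds differed, so the sizes stand side by side without a comparison. The mean of the 3 compounds was -1.11 ± 0.09 (adjusted p = 6.6e-20, 45.6% of features called).

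The fall of Pck1 was present on the first day sampled. On day 2 the 3 Wy-14643 livers read -1.80, -1.45 and -1.28, and the 3 fenofibrate livers -1.74, -0.91 and -0.83, whereas the 14 vehicle livers ran from -0.59 to 0.35. On day 6 the Wy-14643 livers read -2.07, -1.87 and -1.18 and the fenofibrate livers -2.09, -1.41 and -1.35, against -0.56 to 0.28 in 16 vehicle livers. Treated and vehicle rats did not overlap on either day. The share of all features that separate in this way was not counted, on these days or on the others given for Pck1 and G6pc1. Against the vehicle rats of the day, Pck1 passed on each of the 5 days with Wy-14643, with differences from -1.66 to -1.19, and with fenofibrate, from -1.73 to -1.12. Leaving out 1 rat ended the call on day 5 with Wy-14643 (-1.10 without rat 1210 and -1.13 without rat 1211) and on 3 days with fenofibrate (day 2 at -0.83 without rat 1142, day 3 at -0.93 without rat 1146 and -1.48 without rat 1148, day 5 at -0.97 without rat 1154). Fenofibrate on day 3 also did not pass when set against the pool in place of the vehicle rats (-1.35, adjusted p = 0.058). From day 2 to day 6 these comparisons called 7.84%, 10.1%, 7.6%, 9.86% and 15.1% of features with Wy-14643 and 9.29%, 6.99%, 8.94%, 7.21% and 13.5% with fenofibrate. With bezafibrate the daily differences lay between -0.83 and -0.24, and no single day passed, the lowest adjusted p being 0.16 on day 3, where 0.37%, 2.6%, 7.09%, 1.7% and 6.15% of features were called from day 2 to day 6. With array quality weights, which count arrays of larger residual spread for less, bezafibrate passed on day 2 (-0.57, adjusted p = 0.011), day 3 (-0.90, adjusted p = 0.00037) and day 4 (-0.32, adjusted p = 0.031). The weighted day 4 result rested mostly on rat 1261, with a weight of 11.84 against 0.15 for rat 1262 and 0.85 for rat 1263. No trend over days passed for either gene with any compound: 0 of 10 slopes in limma, 0 also at an unadjusted p under 0.05, with adjusted p from 0.37 to 0.99. The slope tests called 0.446% of features with fenofibrate, 0.158% with Wy-14643, 0.0598% with bezafibrate, 0.196% with rosiglitazone and 9.39% with retinoic acid.

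With rosiglitazone and retinoic acid the calls on Pck1 turned on single rats. Rosiglitazone livers ran from -3.91 through a median of -0.35 to 0.17, and 4 of 15 lay above their day's vehicle mean. Their mean difference was -0.51 ± 0.14 (adjusted p = 0.0052, 22.6% of features called). Without rat 1376 it was -0.26 (adjusted p = 0.12, 18.6% of features called), and without day 4 it was -0.23 (adjusted p = 0.27). Day 4 was the only day on which rosiglitazone passed (-1.61, adjusted p = 1.1e-05, 41.5% of features called), and without rat 1376 that day's difference was -0.39 (adjusted p = 0.61). The other days, 2, 3, 5 and 6, called 0.0706%, 0%, 9.51% and 0.94% of features. Retinoic acid livers ran from -2.55 through -0.19 to 0.18. Their mean difference of -0.31 ± 0.14 did not pass (adjusted p = 0.084, 29.2% of features called). It was -0.39 without rat 1313 and -0.39 without rat 1316, and then passed (adjusted p = 0.032 in both cases), and -0.16 without rat 1314. Day 3 passed at -0.90 (adjusted p = 0.030, 18.7% of features called) and read -0.15 without rat 1314 (adjusted p = 0.94). Days 2, 4, 5 and 6 called 12.8%, 5.69%, 3.12% and 8.94% of features with retinoic acid, and Pck1 passed on none of them.

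The 4 Pck1 probes gave the same calls for each compound's mean over days. One of them read less change than the others. It gave -0.97 with Wy-14643 and -1.06 with fenofibrate, while the other 3 gave -1.66 to -1.59 and -1.54 to -1.40. That probe alone did not pass with fenofibrate on days 2 and 3 or with Wy-14643 on days 2, 4 and 5. Another probe alone did not pass with fenofibrate on day 5 (-1.02, limma adjusted p = 0.057). Each of these probes alone also lost the retinoic acid call on day 3, at -0.90 and -0.87 (adjusted p = 0.05 and 0.067).

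G6pc1 was lower with fenofibrate, Wy-14643 and retinoic acid. It was 2.40-fold lower with fenofibrate (95% interval 1.88 to 3.06), 2.04-fold lower with retinoic acid (1.61 to 2.58) and 1.84-fold lower with Wy-14643 (1.45 to 2.32). Vehicle livers ran from -1.66 through a median of -0.13 to 0.89. Fenofibrate livers ran from -2.28 through -1.39 to -0.71, all 14 below the vehicle mean of their day and 12 of 14 below its lowest vehicle rat. Wy-14643 livers ran from -1.58 through -0.85 to -0.10, with 14 of 15 below the day's vehicle mean and 8 below its lowest vehicle rat. Retinoic acid livers ran from -4.48 through -1.07 to 0.06, with 14 of 15 below the day's mean and 9 below its lowest vehicle rat. Bezafibrate livers, from -0.90 through -0.27 to 0.52, overlapped the vehicle range, with 1 of 15 below the lowest vehicle rat of its day.

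In limma the G6pc1 difference was -1.26 ± 0.18 (SE) with fenofibrate (adjusted p = 3.2e-09) and -0.88 ± 0.17 with Wy-14643 (adjusted p = 9.5e-06). With retinoic acid it was -1.03 ± 0.17 (adjusted p = 5.1e-07). With bezafibrate it was -0.12 ± 0.17 and did not pass (adjusted p = 0.69), the 95% interval running from -0.46 to 0.22. The rosiglitazone difference of -0.57 ± 0.17 (adjusted p = 0.010) was -0.32 without rat 1376 and then did not pass (adjusted p = 0.15). The mean of the 3 PPARA agonists was -0.75 ± 0.12 (adjusted p = 2e-08).

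By day, G6pc1 passed with fenofibrate on days 2, 4, 5 and 6 and with Wy-14643 on days 4 and 6. With array quality weights the Wy-14643 call on day 4 was lost (-1.18, adjusted p = 0.11), and day 3 passed with Wy-14643 (-0.90, adjusted p = 0.0063) and fenofibrate (-0.80, adjusted p = 0.037). Day 3 with Wy-14643 also passed without the arrays in doubt (-1.002, adjusted p = 0.033) and with the mean of all probes (-1.002, adjusted p = 0.047). In liver the only array in doubt was rosiglitazone rat 1376. Leaving it out kept the Wy-14643 and retinoic acid differences and changed the spread estimated over all groups. On day 4 the fenofibrate livers read -2.28, -1.76 and -1.06 and the Wy-14643 livers -1.54, -1.41 and -0.90, all below the 15 vehicle livers of that day, which ran from -0.87 to 0.89. Leaving out 1 of the day's 3 rats ended each of these calls for at least 1 rat, with differences from -1.38 to -0.94 with fenofibrate and from -1.33 to -0.97 with Wy-14643 in those cases. Retinoic acid passed on day 3 (-2.31, adjusted p = 1.8e-06). That day's 3 rats read -4.48, -1.36 and -1.34, all below the lowest of 14 vehicle rats at -0.66. The share of all features that separate in this way was not counted on this day or on day 4. Without rat 1314 the retinoic acid difference on day 3 was -1.27 (adjusted p = 0.065). On day 4 the retinoic acid rats read -1.26, -1.07 and -0.89, again below the lowest vehicle rat, with a difference of -1.04 that did not pass (adjusted p = 0.096, 5.69% of features called). It passed with array quality weights (-1.02, adjusted p = 0.010) and without the arrays in doubt (-1.04, adjusted p = 0.035), and day 2 passed with array quality weights (-0.65, adjusted p = 0.031). The weighted day 2 result rested mostly on rat 1312, with a weight of 4.59 against 0.37 for rat 1309 and 0.39 for rat 1311.

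**Figure D2:**
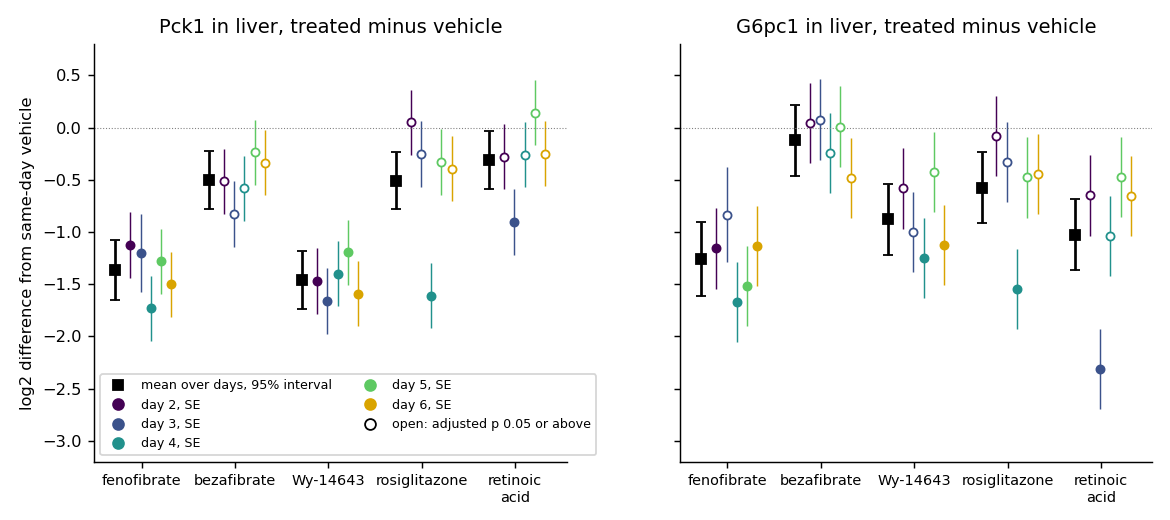
Difference from same-day vehicle in log2 units for Pck1 (left) and G6pc1 (right) by compound. Squares are means over days with 95% intervals, circles single days with SE, and open circles have an adjusted p of 0.05 or above. For Pck1 all daily circles of fenofibrate and Wy-14643 are filled, between -1.73 and -1.12, and for G6pc1 the bezafibrate circles are open, between -0.49 and 0.08.

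The balance between G6pc1 and Pck1 within a liver shifted in opposite directions with Wy-14643 and retinoic acid. The G6pc1 value minus the Pck1 value of the same array was set against same-day vehicle rats, a test chosen after the data had been seen, with permutation within days and adjustment over 5 compounds. The balance was 0.59 higher with Wy-14643, above the vehicle mean in 14 of 15 rats (two-sided permutation p = 1e-05, the smallest that 100000 resamples can give, adjusted p = 2.5e-05). It was 0.38 higher with bezafibrate, in 11 of 15 rats (permutation p = 0.0021, adjusted p = 0.0036). With retinoic acid it was -0.72, below the vehicle mean in 15 of 15 rats (permutation p = 1e-05, adjusted p = 2.5e-05), and -0.66 without rat 1314. With fenofibrate the balance differed by 0.11 (permutation adjusted p = 0.48) and with rosiglitazone by -0.07 (adjusted p = 0.55). Averaged over probes and relative to vehicle, Pck1 was thus the lower of the pair with Wy-14643 and bezafibrate, and G6pc1 the lower with retinoic acid. The size of the Wy-14643 shift varied with the probe. One Pck1 probe alone differed from vehicle by -0.97, beside -0.88 and -0.87 for the G6pc1 probes. The balance was not tested probe by probe.

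Wy-14643 and rosiglitazone were given at the same labelled dose and days, which allowed 1 direct comparison of compounds of different receptor preference. Pck1 was 1.94-fold lower with Wy-14643 than with rosiglitazone (95% interval 1.51 to 2.48), a log2 difference of -0.96 ± 0.18 (limma adjusted p = 1e-05, 30.1% of features called). Without rat 1376 the Pck1 difference was -1.20 (adjusted p = 1.7e-10, 34.1% of features called). With rat 1376, 1 Pck1 probe alone gave -0.53 (adjusted p = 0.029), and the other probes gave -1.14 to -1.05. For G6pc1 the difference was -0.30 ± 0.22 with an interval from -0.74 to 0.13 (adjusted p = 0.31). Without rat 1376 it was -0.56 and passed (adjusted p = 0.021).

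Tat could be followed in a minority of livers. Its probe had a deposited value on 57 of 147 liver arrays, and the labels and the deposited table do not state why the other values are missing. In this table missing liver values were not spread evenly: 5 of 12 hepatocyte markers had too few values to be tested. Of all 23653 probes, 373 had values on fewer than 80% of the liver arrays. Values were present in 19 of 73 vehicle rats (26.0%), and by day in 0, 1, 5, 3 and 10. They were present in 7 of 14 fenofibrate rats, 9 of 15 bezafibrate rats, 8 of 15 Wy-14643 rats, 3 of 15 rosiglitazone rats and 11 of 15 retinoic acid rats. Presence was set against vehicle with permutation within days, a test chosen after the data had been seen. Values were present more often with retinoic acid (permutation p = 0.0002, adjusted p = 0.001), bezafibrate (permutation p = 0.0048, adjusted p = 0.012) and Wy-14643 (permutation p = 0.022, adjusted p = 0.036). What presence of a value says about the level of Tat was not tested.

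Where Tat was reported, its vehicle values ran from -1.09 through -0.13 to 0.76. Retinoic acid values ran from -0.94 through -0.76 to -0.37 in 11 rats. Bezafibrate values ran from -1.40 through -0.44 to 0.35, fenofibrate values from -0.88 through -0.48 to 0.26 and Wy-14643 values from -0.77 through -0.45 to -0.12. The 3 rosiglitazone values were -5.03, from rat 1376, -0.68 and -0.38. Over all days together every group overlapped the vehicle values, with 2 bezafibrate rats and rosiglitazone rat 1376 below the lowest vehicle value. Same-day vehicle values were lacking on day 2 and came from 1 rat on day 3. Against them, 9 retinoic acid values lay below the day's mean and 0 above. The counts were 7 and 1 with bezafibrate, 6 and 1 with Wy-14643, 4 and 2 with fenofibrate and 3 and 0 with rosiglitazone. Below the day's lowest vehicle value lay 5 retinoic acid, 4 bezafibrate, 3 Wy-14643, 2 rosiglitazone and 0 fenofibrate values. In an exact permutation test within the days that had at least 3 vehicle values, the mean difference with retinoic acid was -0.54 (exact p = 0.020, adjusted p = 0.099 over 5 compounds). Differences with bezafibrate (-0.41, exact test adjusted p = 0.38), Wy-14643 (-0.23, adjusted p = 0.46) and fenofibrate (-0.23, adjusted p = 0.43) also did not pass. The rosiglitazone difference of -1.82 (exact p = 0.049, adjusted p = 0.12) was -0.28 without rat 1376 (exact p = 0.57).

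**Figure D3:**
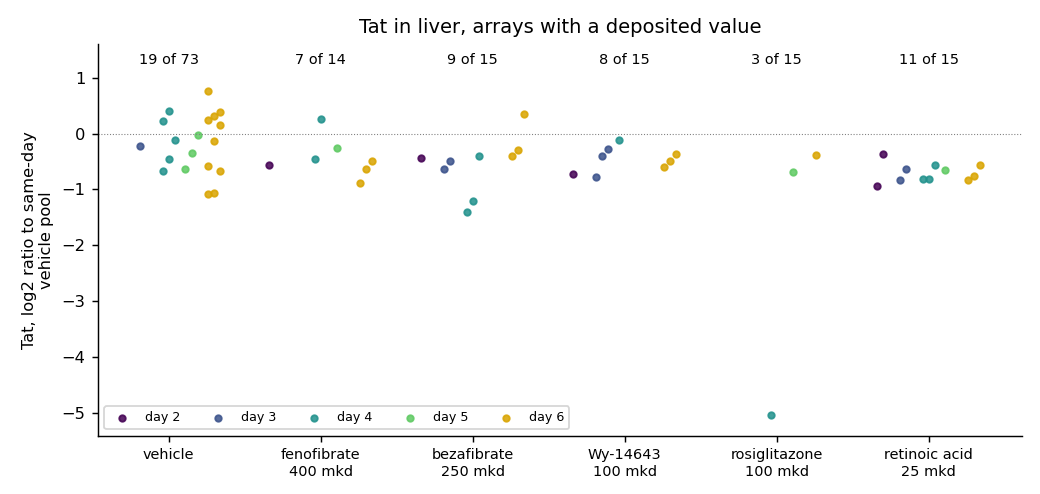
Tat log2 ratio to the same-day vehicle pool in liver, 1 point per array that had a value, coloured by day, with the number of arrays that had a value above each group. The 11 retinoic acid points lie between -0.94 and -0.37, within the spread of the 19 vehicle points of all days together. Of these 11, 5 lie below the lowest vehicle point of their day, and 1 rosiglitazone rat lies at -5.03.

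Among untreated rats, Pck1 and G6pc1 were among the more variable liver genes. The SD between vehicle rats of a day was 0.38 for Pck1 and 0.49 for G6pc1, against 0.155 for the median of 18378 features. Lower SDs were found for 94.6% and 97.3% of features. Without rat 1054 the SDs were 0.28 and 0.46, above 87.5% and 96.7% of features.

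Pck1 and G6pc1 rose and fell together across these rats. After each day's mean was subtracted, which also removes the shared pool, their Pearson's r over 73 vehicle livers was 0.61 (two-sided permutation p = 1e-05, adjusted over 3 pairs 3e-05) and Spearman's rho 0.50 (permutation p = 5e-05, adjusted 0.00015). Without the 2 rats farthest from the median of Pck1, 1054 and 1052, r was 0.48 (permutation p = 8e-05). Single days gave 0.63, 0.45, 0.68, 0.79 and 0.23 from day 2 to day 6. Days 3 and 6 taken alone did not pass (permutation p = 0.11 and 0.40). Over the 74 treated livers, with each compound and day's mean subtracted, r was 0.83, and without rats 1376 and 1314 it was 0.57 (permutation p = 0.00025).

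The pairs with Tat rested on 18 vehicle livers. Pck1 and Tat gave r = 0.32 (permutation p = 0.078, adjusted 0.12) and rho = 0.33 (adjusted 0.16), and r = 0.34 without the 2 farthest rats. G6pc1 and Tat gave r = -0.18 (permutation p = 0.38, adjusted 0.38) and rho = -0.32 (adjusted 0.16), and r = -0.38 without the 2 farthest rats. Neither pair passed. In 29 treated livers with values the coefficients were 0.003 and -0.19.

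**Figure D4:**
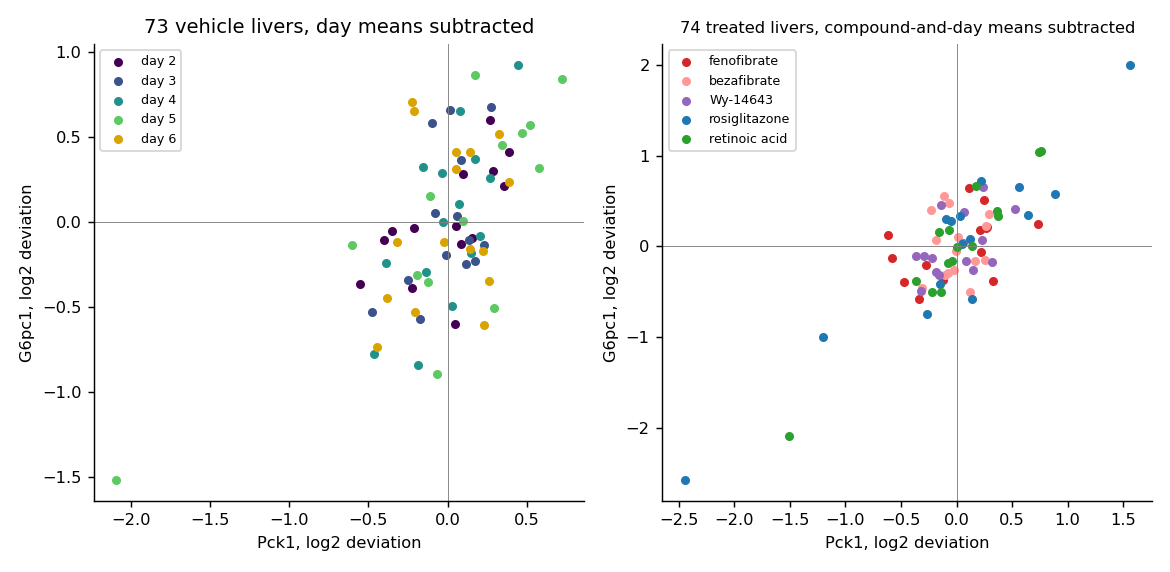
Deviation of G6pc1 against deviation of Pck1 in log2 units, 1 point per liver. The left panel has 73 vehicle livers with day means subtracted (r = 0.61), with rat 1054 at the lower left, and the right panel has 74 treated livers with compound-and-day means subtracted (r = 0.83, or 0.57 without rats 1376 and 1314).

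The genes most like the members among vehicle livers were ranked by Pearson's r over 73 rats with day means subtracted. These are descriptions without a test, since every pair shares arrays, and over the 10049 named genes the median r was -0.03 with Pck1 and -0.02 with G6pc1. The gene most like G6pc1 was P2ry4, a nucleotide receptor, at r = 0.92 with rat 1054 and 0.92 without it, and at 0.83 over 72 treated livers without rats 1376 and 1314. It was followed by Mppe1 (0.65), Tgif1 (0.64), Pck1 itself (0.61), Fhip2a (0.59), Cpt1a (0.57), Fzd4 (0.57) and Copb1 (0.56). Nme1 (-0.61), Gpr155 (-0.58), Cyb5b (-0.58) and Cdk2ap2 (-0.56) had the lowest coefficients. P2ry4 differed from vehicle by -0.42 with fenofibrate (adjusted p = 2.7e-08), -0.32 with Wy-14643 (adjusted p = 5.8e-06) and -0.43 with retinoic acid (adjusted p = 5e-09). With rosiglitazone, rat 1376 included, P2ry4 differed by -0.22 (limma adjusted p = 0.0053), and with bezafibrate by -0.06 (adjusted p = 0.57).

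The gene most like Pck1 was Cpeb1, which encodes a protein that controls translation through polyadenylation, at r = 0.76, at 0.63 without rat 1054 and at 0.71 over the treated livers without rats 1376 and 1314. Clint1 (0.68), Slc25a25 (0.66), Ddi2 (0.64), Slc16a12 (0.63), Ifrd1 (0.62), Zhx3 (0.61) and Pde4dip (0.61) came next. Of these, Slc16a12 and Ifrd1 had coefficients of -0.13 and 0.04 over the treated livers. The lowest were Arpp21 (-0.69), Ccnb1 (-0.69), Knstrn (-0.68) and Cyp2a3 (-0.67), which without rat 1054 lay between -0.41 and -0.33. Cpeb1 was lower with Wy-14643 (-0.34, limma adjusted p = 3.8e-20), fenofibrate (-0.32, adjusted p = 8e-17) and bezafibrate (-0.14, adjusted p = 8.7e-05). It was also lower with retinoic acid (-0.16, adjusted p = 4.4e-06) and, rat 1376 included, with rosiglitazone (-0.08, adjusted p = 0.04). Of other named genes, Slc2a2 had r = 0.49 and Slc37a4 0.46 with Pck1, the clock genes Per1 0.47 and Bmal1 -0.36, and Ppargc1a 0.33. Over the treated livers without rats 1376 and 1314 the coefficients were -0.07, -0.09, 0.13, 0.28 and 0.05. Coefficients with Pck1 among vehicle livers were smaller for Nr3c1 (0.23), Sds (0.17), Irs2 (0.14), Cyp26a1 (0.07), Pdk4 (-0.08) and Acot1 (-0.21). Without rat 1054 these were 0.18, 0.31, 0.24, -0.14, 0.21 and 0.17, so that 3 of them changed sign. Over the treated livers without rats 1376 and 1314 they were -0.39, -0.10, -0.09, -0.09, 0.48 and 0.08. Over 18 genes of a gluconeogenesis list the median r with Pck1 was 0.10, with 3 above 0.3 and 2 below -0.3. With G6pc1 it was -0.005, with 1 above and 1 below. Pdk4, which encodes the kinase that shuts pyruvate oxidation, had r = 0.42 with G6pc1, 0.63 without rat 1054 and 0.52 over the treated livers.

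Tat's likeness rested on 18 vehicle livers. Its highest coefficients were with Cacng4 (0.83), Rapgef1 (0.80), Bcl2l11 (0.78), Myl1 (0.76), Ly6h (0.76), Amh (0.74), Aplnr (0.70) and Slc13a5 (0.70). Its lowest were with C3h20orf144 (-0.79), Fkbp14 (-0.79), Lrit1 (-0.79) and Cnga2 (-0.76). Over 29 treated livers 4 of the 8 highest were below 0, namely Cacng4, Rapgef1, Myl1 and Slc13a5.

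Other genes of the pathway moved in both directions. In a list of enzymes and transporters of the pathway, 19 genes could be tested in liver, Pck1 and G6pc1 among them. With fenofibrate 5 were higher and 5 lower, against 17.7% and 19.3% of all features, with Wy-14643 5 and 7 (19.1% and 21.2%), and with bezafibrate 3 and 9 (11.4% and 9.89%). With rosiglitazone 2 were higher and 6 lower (10.3% and 12.4%), or 2 and 3 without rat 1376, and with retinoic acid 3 and 7 (14.2% and 15%). The median difference over the list lay between -0.16 with bezafibrate and -0.03 with Wy-14643, and over all features between -0.01 and 0.003.

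Slc37a4, Slc2a2 and Pc fell with all 3 PPARA agonists and with retinoic acid. Slc37a4, which carries glucose-6-phosphate to the phosphatase in the endoplasmic reticulum, fell by 1.16 with Wy-14643 (adjusted p = 3.6e-21), 0.91 with fenofibrate, 0.76 with bezafibrate and 0.75 with retinoic acid, all passing. Slc2a2, the glucose transporter of the hepatocyte surface, fell by 1.24 with Wy-14643 (adjusted p = 2.3e-15), 0.68 with fenofibrate, 0.42 with bezafibrate and 0.44 with retinoic acid. With rosiglitazone Slc37a4 was at -0.38 and Slc2a2 at -0.51 (both passing), and without rat 1376 Slc37a4 was at -0.20 (adjusted p = 0.058) and Slc2a2 at -0.33 (adjusted p = 0.038). Pc, the pyruvate carboxylase that supplies oxaloacetate to Pck1, fell by 0.62 with fenofibrate (adjusted p = 1.6e-07), 0.52 with Wy-14643, 0.51 with retinoic acid and 0.39 with bezafibrate. It lay outside the list counts, since the list held its older symbol.

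Fbp2 and Slc16a1 rose with the 3 PPARA agonists. Fbp2, the muscle-type fructose-1,6-bisphosphatase, was 1.93 higher with Wy-14643 (adjusted p = 1e-19), 1.29 with fenofibrate and 0.74 with bezafibrate. It was at -0.31 with rosiglitazone and -0.08 with retinoic acid, neither passing, and the rosiglitazone difference was -0.54 (adjusted p = 0.0058) without rat 1376. Slc16a1, a lactate and ketone body transporter, was 1.11 higher with Wy-14643, 0.65 with fenofibrate, 0.60 with bezafibrate and 0.33 with rosiglitazone (0.22 without rat 1376, adjusted p = 0.029). Gpd1, the cytosolic glycerol-3-phosphate dehydrogenase, was higher with fenofibrate (0.54) and Wy-14643 (0.36) and lower with retinoic acid (-0.48). With rosiglitazone it was at -0.30 and passed, and at -0.19 without rat 1376 it did not (adjusted p = 0.092). Fbp1, the liver enzyme, had too few values to be tested.

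**Figure D5:**
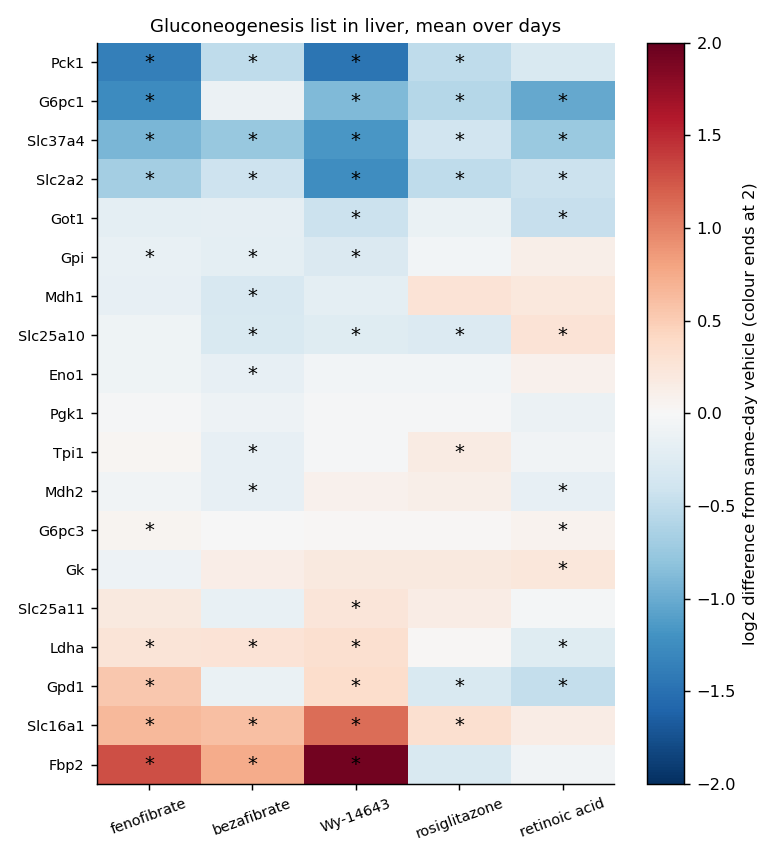
Difference from same-day vehicle in log2 units, mean over days, for the 19 testable genes of the gluconeogenesis list, with an asterisk where the adjusted p is below 0.05. Pck1, G6pc1, Slc37a4 and Slc2a2 are blue in the fenofibrate and Wy-14643 columns, and Fbp2 and Slc16a1 are red there.

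The genes that control the pathway were called about as often as other features with fenofibrate. In a list of 26 testable cAMP, glucagon and fasting regulators, 4 were higher and 5 lower with fenofibrate, against 17.7% and 19.3% of all features. The counts were 2 and 6 with Wy-14643 (19.1% and 21.2%), 4 and 1 with bezafibrate (11.4% and 9.89%), 2 and 8 with rosiglitazone (10.3% and 12.4%; 2 and 6 without rat 1376) and 4 and 4 with retinoic acid (14.2% and 15%). The list's medians lay between -0.10 with rosiglitazone and 0.04 with fenofibrate. Gcgr, the glucagon receptor, was lower with Wy-14643 (-0.56, adjusted p = 6.5e-11), rosiglitazone (-0.40, or -0.24 without rat 1376, adjusted p = 0.00026), bezafibrate (-0.38) and fenofibrate (-0.28), and higher with retinoic acid (0.66, adjusted p = 1.3e-13). Ppargc1a, a coactivator of the fasting programme, was lower with retinoic acid (-0.46, adjusted p = 1.6e-09), fenofibrate (-0.24) and Wy-14643 (-0.17). It was at -0.04 with bezafibrate and 0.06 with rosiglitazone, neither passing. Onecut1, a hepatocyte transcription factor also called HNF6, was lower with fenofibrate (-1.07), rosiglitazone (-0.81, or -0.57 without rat 1376), retinoic acid (-0.63) and Wy-14643 (-0.53).

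In a list of 18 testable glucocorticoid-responsive genes, which also holds Pck1, 3 were higher and 8 lower with fenofibrate (17.7% and 19.3% of all features) and 3 and 8 with Wy-14643 (19.1% and 21.2%). The counts were 1 and 6 with bezafibrate (11.4% and 9.89%), 1 and 4 with rosiglitazone (10.3% and 12.4%; 2 and 4 without rat 1376) and 3 and 9 with retinoic acid (14.2% and 15%). The list's median was -0.28 with retinoic acid, -0.21 with fenofibrate, -0.18 with Wy-14643, -0.14 with bezafibrate and -0.10 with rosiglitazone. Nr3c1, the glucocorticoid receptor, was lower with all 5 compounds, by differences from -0.59 with Wy-14643 (adjusted p = 2.9e-14) to -0.23 with rosiglitazone (adjusted p = 0.0063). Dusp1, a phosphatase gene that glucocorticoids are known to raise, was lower with all 5, from -0.96 with fenofibrate to -0.56 with rosiglitazone. Tsc22d3, another such target, was at -0.57 with fenofibrate, Wy-14643 and retinoic acid and at -0.54 with bezafibrate. Hsd11b1, which regenerates active glucocorticoid inside the cell, was lower with Wy-14643 (-1.58, adjusted p = 1.4e-10) and fenofibrate (-1.13) and at 0.45 and 0.35 with rosiglitazone and retinoic acid, which did not pass. Members of the list that rose with the PPARA agonists included Angptl4, a lipase inhibitor and PPARA target, by 0.96 with Wy-14643.

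In a list of 15 testable insulin signalling and insulin-responsive genes, 3 were higher and 3 lower with fenofibrate, near the shares of all features (17.7% and 19.3%). The counts were 5 and 3 with Wy-14643 (19.1% and 21.2%), 0 and 4 with bezafibrate (11.4% and 9.89%), 2 and 3 with rosiglitazone (10.3% and 12.4%; 4 and 4 without rat 1376) and 5 and 5 with retinoic acid (14.2% and 15%), with list medians between -0.08 with rosiglitazone and 0.07 with retinoic acid. Irs2, the insulin receptor substrate, was at -0.09 with retinoic acid and passed (adjusted p = 1.8e-05), and lay within 0.02 of vehicle with the other 4. Igfbp1 could not be tested. Markers of blood and leukocytes moved with the PPARA agonists too: 9 of 11 were lower with fenofibrate (median -0.34), 8 of 11 with Wy-14643 and 2 of 11 with bezafibrate, where 19.3%, 21.2% and 9.89% of all features were lower, and their part in the results on Pck1 and G6pc1 was not tested. Of 7 testable hepatocyte markers 3 were lower with each of the 3 compounds, beside the same shares of all features, with medians of -0.17, -0.37 and -0.25 for fenofibrate, Wy-14643 and bezafibrate.

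In muscle neither Pck1, G6pc1 nor Tat passed in soleus or quad with any compound, averaged over days. The differences of the 3 genes lay between -0.33 and 0.19 in soleus and between -0.31 and 0.31 in quad. These comparisons called 3.33%, 0.904%, 0.196%, 2.63% and 2.84% of features in soleus and 5.69%, 1.62%, 0.0163%, 6.86% and 2.42% in quad, for fenofibrate, bezafibrate, Wy-14643, rosiglitazone and retinoic acid. Rosiglitazone gave the highest Pck1 values in both muscles, 0.19 ± 0.12 in soleus (adjusted p = 0.50) and 0.31 ± 0.14 in quad (adjusted p = 0.19). Without 3 vehicle soleus arrays that stood apart, the soleus difference was 0.30 (adjusted p = 0.034). Pck1 is also a gene of adipocytes, and adipocyte markers moved with it: 5 of 10 were higher in soleus with rosiglitazone and 5 of 11 in quad. Their part in the Pck1 values was not tested.

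On day 4 nearly all soleus arrays read low for G6pc1 and Tat, vehicle and treated alike. G6pc1 lay below -2 on 28 of 29 arrays with a median of -3.21, and Tat lay below -2 on 27 of 29 with a median of -3.53, while Pck1 had a median of -0.59. The medians of all 12 hepatocyte markers were below -0.5 on that day, from -5.24 to -0.70. The remaining array, vehicle rat 1034, read 2.89 for G6pc1, 3.36 for Tat and 2.09 for Pck1, and its hepatocyte markers lay 5.03 above the other arrays of the day. On the other 4 soleus days the medians of the 3 genes lay between -0.17 and 0.15. All arrays of that day share 1 pool, and the tested differences compare treated with vehicle rats against it.

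EDL arrays had lower doses than liver, apart from rosiglitazone at 100 mkd. They had no single vehicle rats, so their ratios to the pool are described only. Pck1 medians lay between -0.05 and 0.08 across the 6 groups, G6pc1 medians between -0.08 and 0.06 and Tat medians between -0.15 and 0.12. With rosiglitazone at 10 mkd (9 rats) and 100 mkd (4 rats) the Pck1 medians were 0.06 and 0.04.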

How the data were processed

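Liver, soleus, quad and EDL RNA of single rats was measured on 2-colour arrays against same-day vehicle pools. Total RNA was extracted with TRIzol and RNeasy and labelled as cRNA, per the labels' protocols. The deposited table holds log10 ratios for 23653 probes on 484 arrays, capped at ±2 (100-fold, 699 values, none of them of the 3 genes). How the authors normalised these log10 values is not given in the sources used here, so the centring is unknown, and scale and direction were inferred from the limits and from known target genes. They were multiplied by 3.3219 to give log2 ratios. These files give no depth, and precision depends on how many arrays a group holds.

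Probes with values on at least 80% of a tissue's arrays were averaged per gene, a rule chosen after the data had been seen. For G6pc1 in liver 2 of 3 probes remained. limma 3.58.1 in R 4.3.3 was fitted within each tissue with 1 mean per compound and day, compounds were set against same-day vehicle rats, days were weighted equally, and p-values were adjusted over all features at 0.05. Tat, with values on 57 of 147 liver arrays, was tested by exact permutation within days. Correlations used 100000 permutations within days. Scripts were tested on simulated data. Arrays were called in doubt when their spread exceeded 3 times the tissue median or another tissue's markers lay over 2 above the same-day arrays. This marked 9 arrays, with rosiglitazone rat 1376 as the only liver array.

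The genes named are the members, per member the 8 highest and 4 lowest by likeness among vehicle livers, up to 4 passing genes per list and comparison by adjusted p, and 12 fixed genes. The members and lists were chosen with earlier results of these data known. Alternatives were array weights, array medians, arrays in doubt, single probes, single days, the pool as the reference, and each rat left out. One item is not reported here.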

Additional observations from a re-analysis of the deposited data

Results flagged for a closer look

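In EDL, 1 of the 4 arrays of rosiglitazone at 100 mkd lay apart from the others for Pck1, at -0.214, where the group median was 0.04. It was 1 of 12 groups of 4 to 10 arrays checked in this way, and chance flags about 1 in 20 groups.

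Pck1 in liver with retinoic acid lay on opposite sides of vehicle on different days. On day 3 all 3 rats lay below the vehicle mean of the day, with a difference of -0.904, and on day 4 all 3 lay below it, with a difference of -0.2615. On day 5 all 3 lay above it, with a difference of 0.1434. The difference between these days was not tested pair by pair. The slope over days did not pass (limma adjusted p = 0.54). The day 5 value depends on vehicle rat 1054, and without it the difference was -0.018.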

How the results depend on the processing

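Of the main results the differences of Pck1 and G6pc1 with fenofibrate and Wy-14643 averaged over days, and of G6pc1 with retinoic acid, kept their direction and their side of the threshold under every alternative run. G6pc1 with rosiglitazone lost its call with array weights (-0.31), without the arrays in doubt (-0.317) and without day 4 (-0.333), as did Pck1 with rosiglitazone without the arrays in doubt (-0.263) and without day 4 (-0.233), and Pck1 with bezafibrate without day 3 (-0.419). Passing only under an alternative were Pck1 with retinoic acid (array weights -0.214, arrays in doubt left out -0.31, without day 5 -0.424, without vehicle rat 1054 -0.343) and G6pc1 between Wy-14643 and rosiglitazone (-0.562 with array weights, -0.561 without the arrays in doubt). Leaving out 1 rat at a time gave Pck1 with retinoic acid -0.387 to -0.16, Pck1 with rosiglitazone -0.664 to -0.263, G6pc1 with rosiglitazone -0.775 to -0.317 and G6pc1 between Wy-14643 and rosiglitazone -0.561 to -0.102. The causes were not tested.

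Array weights called 7484 features with bezafibrate and 8373 with retinoic acid, against 3910 and 5376. Without day 4, 2581 features were called with rosiglitazone, against 4158. The correlation of Pck1 and G6pc1 was 0.45 on day 3 and 0.225 on day 6 alone. That of Pck1 and Tat had a permutation p below 0.05 without day 4 (0.416) and with 1 Pck1 probe (0.51).

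Signs that changed were of small single-day or muscle differences that did not pass. For G6pc1 with bezafibrate these were day 2 (-0.078 with array weights, -0.036 against the pool), day 3 (-0.009 against the pool), day 4 (0.114 with array weights) and day 5 (-0.116 with array weights, -0.126 against the pool, -0.03 with 1 probe, -0.108 without rat 1054). For Pck1 with rosiglitazone they were day 2 (-0.006 with array weights, and -0.068, -0.168 and -0.015 with single probes) and day 5 (0.173 with array weights), and with retinoic acid day 2 (0.333 with 1 probe) and day 5 (-0.018 without rat 1054). In quad, Pck1 was -0.0 with fenofibrate after array medians were subtracted and -0.027 with retinoic acid without the arrays in doubt. In soleus without those arrays, Pck1 and Tat were 0.009 and 0.018 with fenofibrate. With 1 rat left out, G6pc1 with bezafibrate ranged from -0.231 to 0.295 on day 2, -0.128 to 0.205 on day 3 and -0.23 to 0.166 on day 5. G6pc1 with rosiglitazone ranged from -0.246 to 0.128, -0.688 to 0.047 and -0.804 to 0.023 on days 2, 3 and 5, and Pck1 from -0.013 to 0.124 and -0.65 to 0.273 on days 2 and 5.

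No paired analysis was possible because rat numbers recur only across tissues and compounds within a tissue share no rat.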
